A study of Mus musculus with 18 samples.

Results

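Bmp2, Bmp4, Bmp6, Bmp7 and Gdf11 encode the 5 BMP ligands followed here in the mouse retinal pigment epithelium (RPE), the pigmented cell layer that lies between the photoreceptors and the choroid. They were taken by gene symbol from a count table of 52636 genes, and each symbol matched 1 row. They are the ligands that the study named as highly expressed in the RPE and followed up. Each of the 18 libraries was made from RPE dissociated with papain from the eyecups of both eyes of 1 C57BL/6 mouse at postnatal day 14, after the retina and optic nerve had been removed. The 6 groups held 3 libraries each. The uninjected group received nothing, and the other groups were newborn pups that received an AAV8 vector in which the RPE promoter Best1 drove the insert. The insert was GFP, nSREBP2 (the nuclear, active form of the sterol-regulating transcription factor encoded by Srebf2), a control hairpin against the bacterial gene lacZ (ctrl sh), or 1 of 2 hairpins against Lrp2 (Lrp2 sh1 and Lrp2 sh2). Lrp2 encodes megalin, a large endocytic receptor of the low-density lipoprotein receptor family. The study compared nSREBP2 with GFP and each Lrp2 hairpin with ctrl sh, and asked through which signals the RPE sets the size of the eye.

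BMPs are secreted dimers of the TGFβ superfamily. They are cleaved from larger precursors by furin-type proteases, bind type I and type II serine/threonine kinase receptors, and lead to phosphorylation of Smad1, Smad5 and Smad9, which enter the nucleus with Smad4 and switch on targets such as the Id genes and the inhibitory Smads. Secreted antagonists such as noggin, gremlins and sclerostin family proteins hold the ligands away from their receptors. In the RPE, BMP2 and BMP4 are known as signals whose expression follows visual cues that guide eye growth, BMP7 takes part in eye formation, and BMP6 is best known elsewhere for iron regulation. GDF11, also called BMP11, is a ligand of the activin branch, which signals mainly through Smad2 and Smad3.

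In the GRCm38 mouse genome Bmp2 lies at chr2:133552159-133562885 on the plus strand, Bmp4 at chr14:46383520-46390669 on the minus strand and Bmp6 at chr13:38345107-38500302 on the plus strand. Bmp7 lies at chr2:172868012-172940321 and Gdf11 at chr10:128882295-128891718, both on the minus strand, and Lrp2 at chr2:69424340-69586065 on the minus strand. In the GENCODE M21 annotation 89 exonic bases of Bmp4 overlap Gm15217 and 224 exonic bases of Bmp6 overlap Txndc5, each on the opposite strand. Whether the counting used strand is not given in the sources used here, so the counts of those short stretches may be shared.

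Because nSREBP2 is a DNA-binding factor, the sequence just upstream of the ligand genes was searched for 2 motifs that SREBPs are known to bind, the E-box CACGTG, which reads the same on both strands, and GTGGGG, a short sterol-response-like element searched on both strands. The RefSeq promoter table for GRCm38.p6 held 3 of the 5 ligands (Bmp4, Bmp6 and Gdf11) and Lrp2. In the 250 bases before the start site, CACGTG occurred 1 time in Bmp4, 1 time in Bmp6, and 0 times in Gdf11 and Lrp2, and 6.02% of 32851 such windows held it. All 250 bases of the Bmp6 window lie in exons of the GENCODE M21 annotation, whose Bmp6 gene starts further upstream, so that window is no promoter by that annotation. GTGGGG occurred 1 time in Lrp2 and 0 times in the 3 ligands, and 25.5% of all windows held it. With nSREBP2 against GFP, Lrp2 fell and Bmp4 was higher (log2 fold change +0.47). The Bmp4 call was lost under some alternatives, and against uninjected Bmp4 was at −0.70. The windows of these 2 genes are given here 5′ to 3′ on the minus strand, with the matched motif in capitals. They are Bmp4 at chr14:46390670-46390919 and Lrp2 at chr2:69586066-69586279, whose window was shortened where it ran into an annotated exon.
Bmp4: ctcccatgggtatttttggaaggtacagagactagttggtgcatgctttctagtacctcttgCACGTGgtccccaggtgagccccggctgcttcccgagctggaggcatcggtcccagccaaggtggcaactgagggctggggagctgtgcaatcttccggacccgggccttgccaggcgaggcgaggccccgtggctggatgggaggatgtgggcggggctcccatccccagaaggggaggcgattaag
Lrp2: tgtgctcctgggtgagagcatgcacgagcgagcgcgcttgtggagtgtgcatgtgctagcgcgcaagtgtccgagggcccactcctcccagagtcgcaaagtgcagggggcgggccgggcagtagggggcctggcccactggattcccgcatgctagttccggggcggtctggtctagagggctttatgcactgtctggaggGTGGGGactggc
A match is a string in the window and not evidence of binding.

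Total counts ran from 8921885 to 13696934 per library. The targeted genes behaved as labelled. Srebf2 was at 208 to 233 CPM (counts per 1000000, scaled by TMM) in the nSREBP2 libraries and at 83.5 to 121 CPM in the other 15. Lrp2 was at 29.7, 42.8 and 38.1 CPM with Lrp2 sh1 and at 37.7, 34.6 and 43.6 CPM with Lrp2 sh2, against 166, 87.7 and 100.2 CPM with ctrl sh, and the groups did not overlap (log2 fold change −1.68, edgeR quasi-likelihood adjusted P = 0.00328, and −1.60, edgeR adjusted P = 0.00109). It was at 37.7, 30.0 and 25.1 CPM with nSREBP2 against 176, 159.7 and 87.9 CPM with GFP (−2.18, edgeR adjusted P = 0.000233). Counts on Xist and on Y-linked genes marked the 3 nSREBP2 libraries as male and the 3 GFP libraries as female, so sex and nSREBP2 cannot be told apart in that pair. All ctrl sh and Lrp2 sh1 libraries were female, whereas Lrp2 sh2 replicates 2 and 3 were male, so sex also differed in part between Lrp2 sh2 and these groups. In the uninjected group replicate 3 was male. Every comparison was also fitted over all 18 libraries with a sex term. That term rests on the uninjected and Lrp2 sh2 groups, the only ones with both sexes, so it separates sex from group only weakly. By their source names, the uninjected and nSREBP2 libraries all had lower library numbers than the libraries of the other groups. What these numbers mark is not stated. Library number and vector cannot be told apart in nSREBP2 against GFP. The same holds for GFP, ctrl sh and both Lrp2 hairpins against uninjected.

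The tissue label was checked against 16 RPE markers, and the injected libraries differed from the uninjected ones. Rpe65, the isomerase of the visual cycle, was at 375, 955 and 1130 CPM in the uninjected libraries, but at 1.06 to 2.31 CPM with GFP, 2.45 to 3.72 with nSREBP2, 3.56 to 44 with Lrp2 sh1 and 3.5 to 15.6 with Lrp2 sh2. With ctrl sh it was at 97 CPM in replicate 1 and at 2.58 and 1.77 CPM in the other two. With GFP, Rgr (11.4 to 27.4 CPM against 624 to 2130 uninjected) and Ttr (40.6 to 72.7 against 786 to 2150) were also far lower. Of the 16 markers, 10 lay below the uninjected range in every GFP library and 0 lay above it. The markers did not move alike. Means with GFP and uninjected were 193 and 191 CPM for Mitf, 417 and 397 for Tyr, 2380 and 2360 for Tyrp1, 129 and 101 for Krt18 and 98 and 126 for Otx2. Against ctrl sh, Lrp2 sh2 had 9 markers lower and 1 higher without overlap, the higher one being Krt18 (297 against 133 CPM). The sum of all 16 markers was 7299 to 15351 CPM uninjected and 5145 to 9759 CPM in the injected libraries, and it is dominated by the pigment genes Pmel and Tyrp1. The sum of the other 12 markers, leaving out Pmel, Tyrp1, Tyr and Mitf, was 2800, 7540 and 8160 CPM in the uninjected libraries, 645, 619 and 428 with GFP, 496, 398 and 345 with nSREBP2, 4060, 1830 and 2060 with ctrl sh, 1530, 2400 and 1640 with Lrp2 sh1 and 655, 730 and 1110 with Lrp2 sh2. The 12-marker sum therefore overlapped between GFP and nSREBP2 and between ctrl sh and Lrp2 sh1, and did not overlap between ctrl sh and Lrp2 sh2 or between GFP and ctrl sh. A summed level of 8 fibroblast and sclera genes was 72557 to 86892 CPM with nSREBP2 and 35282 to 44843 with GFP, against 19111 to 31125 uninjected, and its part in the ligand values was not tested. In bulk tissue, fewer cells of a type and less RNA of a gene per cell cannot be told apart.

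Per kilobase of annotated exon the 5 ligands had similar levels in the uninjected libraries. These libraries also held RNA of other cell types, such as fibroblast, sclera and endothelial genes, so the levels cannot be assigned to RPE cells. Bmp4 was at 17.1 ± 5.89 CPM per kilobase (SD, n = 3), Bmp6 at 14.3 ± 1.32, Gdf11 at 12.4 ± 3.93, Bmp2 at 12.2 ± 3.92 and Bmp7 at 8.90 ± 3.73. Neighbours in this order differed by less than their spread, and the order changed when coding length was used, with Gdf11 first at 41.4 and Bmp7 last at 27.7 CPM per kilobase of coding sequence. Among the other ligands of the superfamily Tgfb3 was higher than all 5, at 57.4 CPM per kilobase of exon, and Tgfb1 (16.9), Tgfb2 (14.3) and Gdf10 (12.8) were in the same range. The activin subunits Inhba and Inhbb were at 1.77 and 2.76.

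Bmp2 passed the test as lower in all 3 comparisons of the study, and Bmp6, Bmp7 and Gdf11 had log2 fold changes below 0 in all 3 without passing in each. It was at 18.1, 15.1 and 14.6 CPM with nSREBP2 against 37.2, 42.8 and 23.0 with GFP, and every nSREBP2 library was below every GFP library. The log2 fold change was −1.10 (SE 0.20, edgeR quasi-likelihood adjusted P = 0.00434), and it kept its call without any 1 library (−1.32 to −0.91) and in the fit with the sex term (−1.37, edgeR adjusted P = 0.00781). With Lrp2 sh2 Bmp2 was at 18.96, 23.5 and 22.3 CPM against 43.4, 36.8 and 41.6 with ctrl sh, again with no overlap. It fell by 0.90 on the log2 scale (SE 0.10, edgeR adjusted P = 0.000532). With Lrp2 sh1 it was at 32.3, 31.4 and 31.0 CPM, below all 3 ctrl sh libraries, and the change was smaller at −0.37 (SE 0.08, edgeR adjusted P = 0.0325). That last call was lost without ctrl sh replicate 1 or 3 or any 1 of the Lrp2 sh1 libraries (−0.38 to −0.31) and when all 18 libraries shared 1 fit (edgeR adjusted P = 0.424). With the 12-marker sum as a term in the 18-library fit, an alternative chosen after the marker levels were seen, Bmp2 stayed lower with nSREBP2 (−0.89, edgeR adjusted P = 0.000733), while with Lrp2 sh2 it was at −0.19 (0.691) and with Lrp2 sh1 at −0.16 (0.659). The sums of ctrl sh and Lrp2 sh2 do not overlap, so the Lrp2 sh2 values against ctrl sh with this term extrapolate, here and below. The summed markers themselves differed between the groups, so the term may also remove part of a vector's effect.

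**Figure D1:**
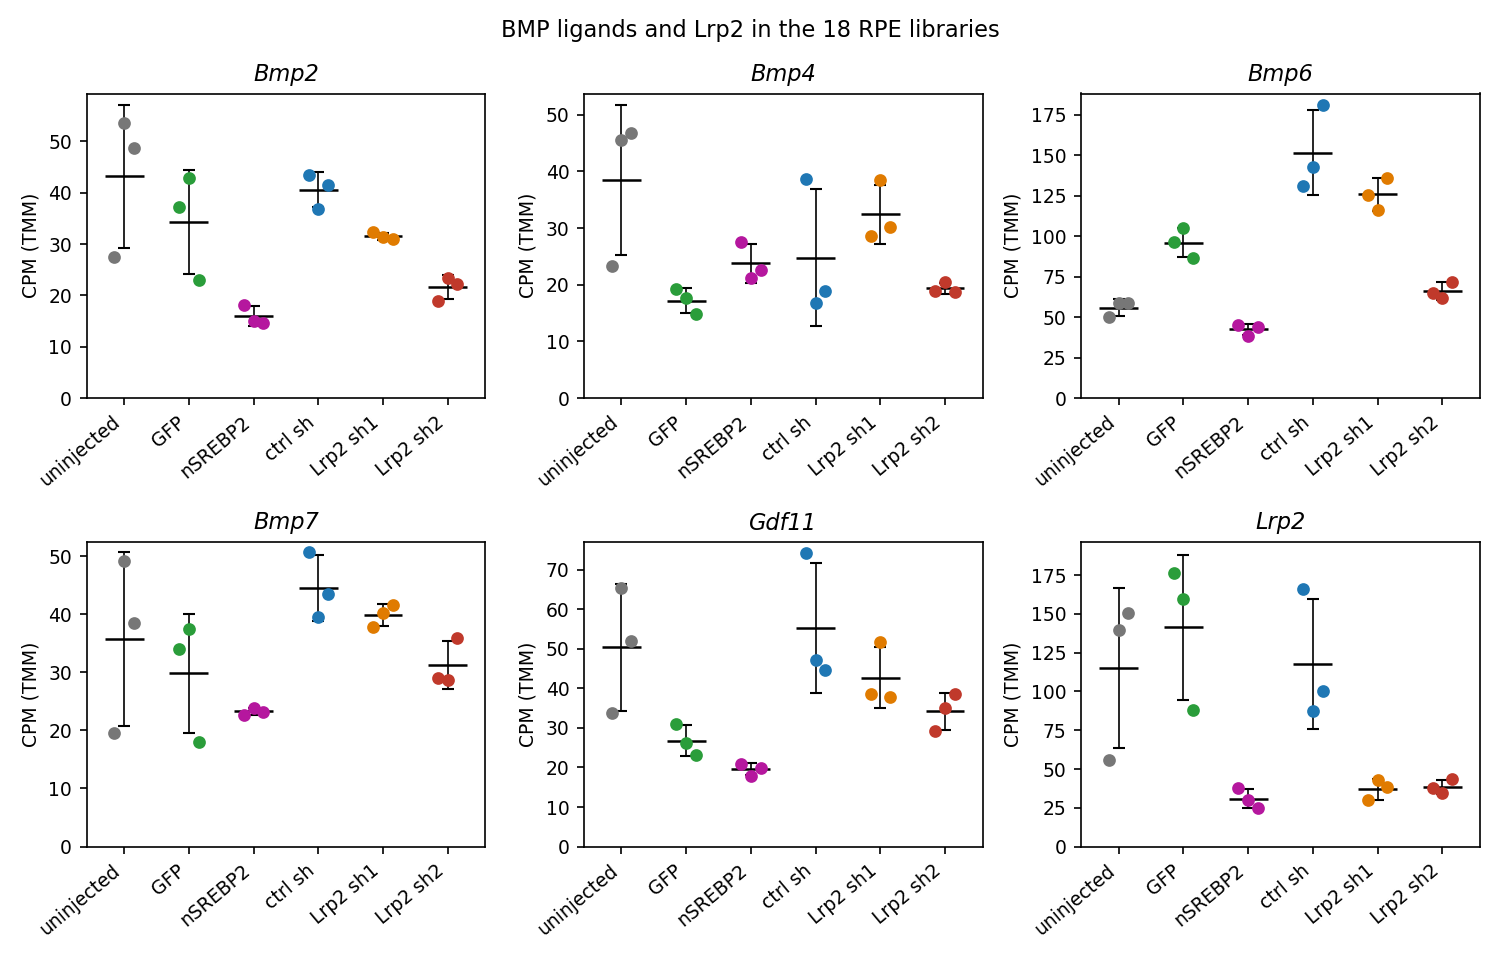
TMM-scaled CPM of the 5 ligands and Lrp2 in each of the 18 libraries, 3 points per group with the group mean. Bmp2 was lowest with nSREBP2 (14.6 to 18.1 CPM), while Bmp6 was above the uninjected libraries with GFP, ctrl sh and both Lrp2 hairpins.

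Bmp6 was the other ligand with a large difference in 2 of the 3 comparisons, but its controls had moved away from the uninjected level. It was at 45.1, 38.6 and 43.8 CPM with nSREBP2 and at 96.2, 105.1 and 86.7 CPM with GFP, a log2 fold change of −1.17 (SE 0.09, edgeR adjusted P = 2.78e-05). With Lrp2 sh2 it was at 64.7, 61.5 and 71.9 CPM against 131.0, 142 and 181 with ctrl sh, at −1.19 (SE 0.12, edgeR adjusted P = 0.000261). Both groups were below their control in every library. With Lrp2 sh1, at 125, 116 and 136 CPM, Bmp6 overlapped ctrl sh and did not pass the test (−0.27, SE 0.11, edgeR adjusted P = 0.224). The uninjected libraries were at 49.8, 58.7 and 58.7 CPM, so nSREBP2 lay just below them (−0.40, SE 0.10, edgeR adjusted P = 0.0155, a call lost without uninjected replicate 2 or 3 or nSREBP2 replicate 2), and Lrp2 sh2 lay above them in every library without passing the test (+0.25, SE 0.10, edgeR adjusted P = 0.105). With the sex term Bmp6 was at −1.25 for nSREBP2 (edgeR adjusted P = 0.000156). The calls of Bmp6 against GFP and against ctrl sh were kept with the 12-marker term (−1.16, edgeR adjusted P = 2.81e-06, and −1.13, edgeR adjusted P = 0.000432).

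Bmp4 rose with nSREBP2 against GFP, where Bmp2 fell, but against uninjected it was at −0.70 (SE 0.24, edgeR adjusted P = 0.0601, DESeq2 adjusted P = 0.0185). It was at 27.6, 21.2 and 22.5 CPM with nSREBP2, above the 19.2, 17.6 and 14.8 CPM of the GFP libraries (+0.47, SE 0.13, edgeR adjusted P = 0.0317). The call was lost without GFP replicate 2 or 3 or nSREBP2 replicate 1, when all 18 libraries shared 1 fit (edgeR adjusted P = 0.259) and when that fit also held a sex term (0.806). In the Lrp2 sh1 libraries Bmp4 was at 28.6, 38.4 and 30.2 CPM and with Lrp2 sh2 at 18.9, 20.5 and 18.7 CPM, against 38.7, 16.7 and 18.97 with ctrl sh. The ctrl sh libraries spread across both hairpin groups, and neither comparison passed the test (+0.38, edgeR adjusted P = 0.502, and −0.35, edgeR adjusted P = 0.418). Without ctrl sh replicate 1, the library with the highest 12-marker sum of its group, Bmp4 was higher with Lrp2 sh1 (+0.86, edgeR adjusted P = 0.00445). With the 12-marker term it was called higher in all 3 comparisons, at +0.77 with nSREBP2 (edgeR adjusted P = 0.000597), +0.76 with Lrp2 sh1 (0.00175) and +0.85 with Lrp2 sh2 (0.0132). The Lrp2 sh2 value extrapolates, since its marker sums do not overlap those of ctrl sh.

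Gdf11 and Bmp7 differed less. Gdf11 was at 20.9, 17.9 and 19.8 CPM with nSREBP2, below the 30.9, 26.2 and 23.2 CPM with GFP (−0.45, SE 0.12, edgeR adjusted P = 0.0262), and it was at 29.2, 35.1 and 38.5 CPM with Lrp2 sh2 against 74.2, 47.1 and 44.5 with ctrl sh (−0.68, SE 0.19, edgeR adjusted P = 0.0320). With Lrp2 sh1, at 38.6, 51.7 and 37.8 CPM, it did not pass the test (−0.38, edgeR adjusted P = 0.316). The nSREBP2 call was lost without GFP replicate 1 or 2 or nSREBP2 replicate 2 or 3 (−0.46 to −0.34) and in the 18-library fits without and with the sex term (edgeR adjusted P = 0.176 and 0.242), and the Lrp2 sh2 call without Lrp2 sh2 replicate 1 or 2 and with the sex term (0.0533). With the 12-marker term neither Gdf11 call held (−0.20, edgeR adjusted P = 0.229, for nSREBP2, and +0.23, edgeR adjusted P = 0.437, for Lrp2 sh2). Here and for Bmp7 below, the Lrp2 sh2 value with this term extrapolates. Bmp7 was at 22.6, 23.9 and 23.2 CPM with nSREBP2 and 33.9, 37.4 and 18.1 with GFP. Those groups overlapped through GFP replicate 3, and without it the difference passed the test (−0.61, edgeR adjusted P = 0.00192, against −0.35 and 0.313 with all 3). Bmp7 fell with Lrp2 sh2 (29.1, 28.7 and 36.0 CPM against 50.6, 39.5 and 43.4; −0.50, SE 0.12, edgeR adjusted P = 0.0164), a call that was lost without Lrp2 sh2 replicate 1 or 2 (edgeR adjusted P = 0.0585 and 0.0697) and in the 18-library fits without and with the sex term (0.17 and 0.232), and with the 12-marker term it was at +0.40 (0.407). It did not pass the test with Lrp2 sh1, at 37.8, 40.1 and 41.7 CPM (−0.16, edgeR adjusted P = 0.389).

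In counts, 3 of the 5 ligands were lower and 1 was higher with nSREBP2, beside 8.47% of all tested genes lower and 12.6% higher. With Lrp2 sh1, 1 ligand was lower and 0 higher (Bmp2), beside 2.28% and 3.06% of all genes. With Lrp2 sh2, 4 were lower and 0 higher, beside 9.48% and 8.59%. At the study's size rule of an absolute log2 fold change over 1, Bmp2 and Bmp6 remained with nSREBP2, 0 ligands with Lrp2 sh1 and Bmp6 with Lrp2 sh2. Genes past that rule were 351 lower and 844 higher of 17927 with nSREBP2, 97 and 80 of 17801 with Lrp2 sh1, and 322 and 539 of 18089 with Lrp2 sh2. Of the counts of 0, an unadjusted p under 0.05 and DESeq2 each also gave 0 ligands higher with either hairpin, whereas the 12-marker term gave 1 (Bmp4) with each. Both hairpin comparisons share the ctrl sh libraries. The medians of the 5 log2 fold changes were −0.45 (nSREBP2), −0.27 (Lrp2 sh1) and −0.68 (Lrp2 sh2), against medians over all genes between −0.02 and 0.01.

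**Figure D2:**
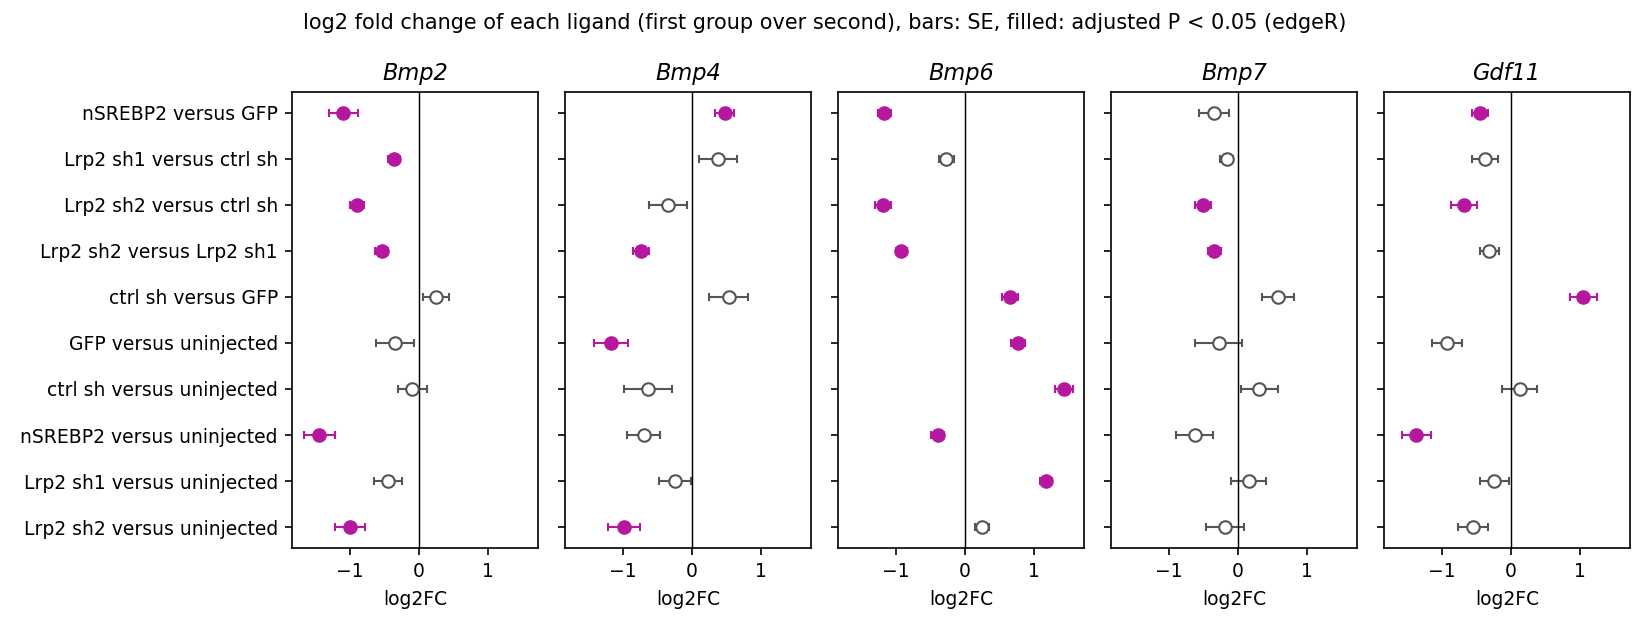
log2 fold change with standard error (bars) of each ligand in the 10 pairwise comparisons, filled where the edgeR adjusted P was under 0.05. Bmp2, Bmp6, Bmp7 and Gdf11 were below 0 in each of the 3 comparisons of the study, and Bmp6 was above 0 against uninjected in the GFP and ctrl sh groups.

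The 2 hairpins lowered Lrp2 to about the same level, with a difference of +0.08 for Lrp2 sh2 against Lrp2 sh1 (SE 0.13, edgeR adjusted P = 0.728), but 4 of the 5 ligands were lower with Lrp2 sh2 than with Lrp2 sh1 (0 higher; 12.3% of all genes were lower and 10.2% higher). Bmp6 differed most at −0.92 (SE 0.08, edgeR adjusted P = 5.22e-05), followed by Bmp4 at −0.73 (SE 0.12, edgeR adjusted P = 0.00160), Bmp2 at −0.54 (SE 0.09, edgeR adjusted P = 0.00250) and Bmp7 at −0.34 (SE 0.10, edgeR adjusted P = 0.0286). Gdf11 did not pass the test (−0.31, edgeR adjusted P = 0.128). The Bmp7 call was lost without any 1 library other than Lrp2 sh2 replicate 3, and in the fit of all 18 libraries only Bmp6 was called. The 12-marker sum was also lower with Lrp2 sh2 in every library. With that sum as a term, Bmp6 kept its call (−0.88, edgeR adjusted P = 0.000727), while Bmp2 was at −0.04 (0.943), Bmp4 at 0.08 and Bmp7 at 0.30, values that extrapolate because the sums do not overlap. When the effect of nSREBP2 was set against that of each hairpin in the 18-library fit, 1 of the 5 ligands differed from Lrp2 sh1, where 9.75% of all genes did, and 0 differed from Lrp2 sh2, where 5.63% did. The ligand was Bmp6, which fell further with nSREBP2 than with Lrp2 sh1 (−0.91, SE 0.16, edgeR adjusted P = 0.00160). For Bmp2 the difference between effects was −0.74 (SE 0.30, edgeR adjusted P = 0.135) against Lrp2 sh1 and −0.19 (SE 0.30, edgeR adjusted P = 0.797) against Lrp2 sh2. At an unadjusted p under 0.05 the edgeR fit gave 2 ligands against Lrp2 sh1 (Bmp2 and Bmp6) and 1 against Lrp2 sh2 (Bmp4). Of all 19744 genes, 4713 and 3824 were under that threshold. A p that misses the threshold does not show that the effects were equal.

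Some ligands differed between the control vectors and the uninjected group. No group was injected without a vector, so injection, vector, insert and library number cannot be told apart here. With GFP against uninjected, Bmp4 fell (23.3, 45.5 and 46.8 CPM uninjected; −1.17, SE 0.24, edgeR adjusted P = 0.0434) and Bmp6 rose (+0.77, SE 0.10, edgeR adjusted P = 0.00849), so that 1 ligand was lower and 1 higher beside 1.82% and 0.662% of all genes. The Bmp4 call was lost without any 1 library other than uninjected replicate 1, and the Bmp6 call without GFP replicate 2 (edgeR adjusted P = 0.0514). Gdf11 was below the uninjected range (33.7, 65.5 and 51.8 CPM) in every GFP library, at −0.93 (SE 0.22, edgeR adjusted P = 0.0630). It was called with no filter on low counts (edgeR adjusted P = 0.00136), by DESeq2 (0.00124), without uninjected replicate 1 (0.0026) and in the 18-library fits without and with the sex term (0.0153 and 0.0376). With ctrl sh against uninjected, 0 ligands were lower and Bmp6 was higher (+1.43, SE 0.13, edgeR adjusted P = 0.00245), beside 3.37% and 3.13% of all genes. Bmp6 was thus higher in both control vectors, by different amounts, since ctrl sh exceeded GFP for Bmp6 (+0.65, SE 0.12, edgeR adjusted P = 0.0239) and for Gdf11 (+1.05, SE 0.20, edgeR adjusted P = 0.0258). These 2 calls were lost without any 1 GFP library, and that of Bmp6 also without ctrl sh replicate 2, with the direction kept. That comparison of the control vectors had 0 ligands lower and 2 higher, beside 0.361% and 2.32% of all genes.

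Against uninjected, nSREBP2 had 3 ligands lower and 0 higher beside 12.4% and 13.7% of all genes. Bmp2 fell by 1.45 on the log2 scale (uninjected at 27.4, 53.7 and 48.7 CPM; SE 0.23, edgeR adjusted P = 0.00201) and Gdf11 by 1.37 (SE 0.21, edgeR adjusted P = 0.00177). Lrp2 sh1 had 0 lower and 1 higher, Bmp6 at +1.17 (SE 0.09, edgeR adjusted P = 0.000127), beside 12% and 12.4%. Lrp2 sh2 had 2 lower and 0 higher, beside 11.4% and 11.3%: Bmp2 at −1.002 (SE 0.22, edgeR adjusted P = 0.0130) and Bmp4 at −0.99 (SE 0.23, edgeR adjusted P = 0.0160). Without Lrp2 sh2 replicate 1 neither was called (edgeR adjusted P = 0.0535 and 0.0577), and Bmp4 was also lost without uninjected replicate 2 or 3 or Lrp2 sh2 replicate 3. Bmp7 (19.6, 49.2 and 38.5 CPM uninjected) passed the test in none of the 5 comparisons with the uninjected group by edgeR. These 5 comparisons share the uninjected libraries, of which replicate 1 was low for Bmp2, Bmp4, Bmp7, Gdf11, Lrp2 and the 12-marker sum. At an unadjusted edgeR p under 0.05, 5 ligands were lower and 0 higher with nSREBP2, 1 and 1 with Lrp2 sh1, and 3 and 1 with Lrp2 sh2. Genes under that threshold in either direction were 6877 of 17983, 6860 of 17788 and 6562 of 18223. DESeq2 called 4, 0 and 2 ligands lower. Without uninjected replicate 1, the ligands called by edgeR rose from 3 to 5 with nSREBP2 and from 2 to 4 with Lrp2 sh2.

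The 12-marker sum as a term turned the direction of most ligands against uninjected. Bmp2 went from −1.45 to 0.27 with nSREBP2 (edgeR adjusted P = 0.784) and from −1.002 to 0.27 with Lrp2 sh2 (0.665), and Bmp4 from −1.17 to 1.18 with GFP (0.0562). Bmp6 kept its call with ctrl sh (1.49, edgeR adjusted P = 1.02e-05) and with Lrp2 sh1 (1.25, edgeR adjusted P = 0.000133) but not with GFP (0.93, edgeR adjusted P = 0.093) or nSREBP2 (−0.22, edgeR adjusted P = 0.763). With ctrl sh, the only injected group whose sums overlapped those of the uninjected libraries, Bmp7 (1.03, edgeR adjusted P = 0.00543) and Gdf11 (0.78, edgeR adjusted P = 0.000716) were also called higher. For the other 4 groups the term extrapolates across sums that do not overlap. Between the control vectors neither call held (Bmp6 at 0.56, edgeR adjusted P = 0.232, and Gdf11 at −0.17, edgeR adjusted P = 0.804).

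Ordering the 6 groups by mean showed how far apart they stood. For Bmp6 the order was ctrl sh (151 ± 26.2 CPM, SD, n = 3), Lrp2 sh1 (126 ± 10.2), GFP (96.0 ± 9.20), Lrp2 sh2 (66.0 ± 5.34), uninjected (55.7 ± 5.15) and nSREBP2 (42.5 ± 3.42), and only ctrl sh and Lrp2 sh1 overlapped among neighbours. For Bmp2, uninjected (43.3 ± 13.9), ctrl sh (40.6 ± 3.42), GFP (34.3 ± 10.2) and Lrp2 sh1 (31.6 ± 0.698) each overlapped the next, while Lrp2 sh2 (21.6 ± 2.34) and nSREBP2 (15.9 ± 1.91) each lay below the group before. For Bmp4, nSREBP2 (23.8 ± 3.39) lay above Lrp2 sh2 (19.4 ± 0.986), for Gdf11 nSREBP2 (19.5 ± 1.55) lay below GFP (26.7 ± 3.86), and for Bmp7 every neighbouring pair overlapped.

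The makeup of the ligands moved with Bmp6. It made up 25.97 ± 5.69% of the summed CPM of the 5 ligands in the uninjected libraries, 47.5 ± 4.26% with GFP, 34.0 ± 1.16% with nSREBP2, 48.0 ± 8.33% with ctrl sh, 46.2 ± 3.94% with Lrp2 sh1 and 38.3 ± 1.95% with Lrp2 sh2 (SD, n = 3). These shares are of reads and are not corrected for transcript length. The summed level was lowest with nSREBP2, at a mean of 125 CPM, and highest with ctrl sh, at 317 CPM.

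**Figure D3:**
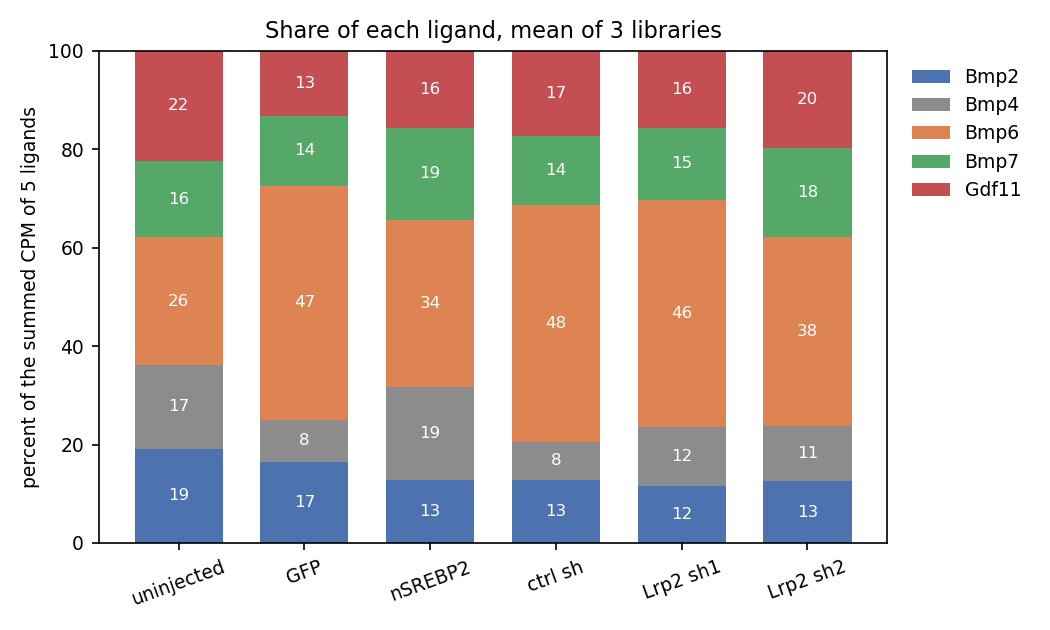
Share (percent) of the summed CPM of the 5 ligands taken by each ligand, by group. Bmp6 took 25.97% in the uninjected group and 47.5% and 48.0% with the GFP and ctrl sh vectors.

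Downstream of the ligands, the BMP targets Id1, Id2, Id3, Id4, Smad6 and Smad7 were counted as a list. The study examined these genes, together with Smad9, in these libraries, so their direction is not independent evidence. With nSREBP2 all 6 fell (median log2 fold change −0.70, all genes −0.02), beside 8.47% of all genes. Id1, an inhibitor of basic helix-loop-helix factors, went from 69.1 to 31.8 CPM (−1.11, SE 0.09, edgeR adjusted P = 3.11e-05), and Smad6, an inhibitory Smad, from 61.2 to 25.9 CPM (−1.23, SE 0.11, edgeR adjusted P = 6.23e-05). With Lrp2 sh1, 1 of 6 fell, Smad6 (−0.55, edgeR adjusted P = 0.00348), beside 2.28% of all genes, and the median was −0.27. With Lrp2 sh2, 4 of 6 fell (Id1, Id2, Id4 and Smad6; median −0.43), beside 9.48% of all genes, and Id3 was at −0.06 and Smad7 at −0.13. With GFP and with ctrl sh against uninjected, 0 and 1 (Id3) of the 6 fell by edgeR, beside 1.82% and 3.37% of all genes, and the medians were −0.23 and −0.29. At an unadjusted edgeR p under 0.05, 2 were lower with GFP (Id4 and Smad6) and 4 with ctrl sh (Id2, Id3, Smad6 and Smad7). Genes under that threshold in either direction were 3529 of 17837 and 4572 of 17822.

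Of the 6 signal-transducing Smads, 1 was lower and 2 were higher with nSREBP2, and 1 was lower and 0 higher with each hairpin by edgeR. For these and the lists that follow, the shares of all genes called lower and higher were 8.47% and 12.6% with nSREBP2, 2.28% and 3.06% for Lrp2 sh1, and 9.48% and 8.59% for Lrp2 sh2. Smad9, which carries BMP signals, fell with nSREBP2 from 36.9 to 13.1 CPM (−1.49, SE 0.15, edgeR adjusted P = 0.000122) and was also lower with both hairpins, while Smad1 and Smad5 were higher with nSREBP2. Among the 10 type I and type II receptors tested, 3 were lower (Acvrl1, Bmpr1b and Bmpr2) and 2 higher (Tgfbr1 and Tgfbr2) with nSREBP2. With Lrp2 sh1, 1 was lower and 1 higher, and with Lrp2 sh2, 1 was lower and 2 higher, and Acvrl1, a receptor best known in endothelium, was the lower one in both. Summed endothelial markers were at 2342 to 2587 CPM with nSREBP2 and 2142 to 2364 with Lrp2 sh2, and at 2852 to 3803 in the other groups, and their part in the Acvrl1 values was not tested. Of 5 co-receptors, 2 were lower and 2 higher with nSREBP2, 0 passed the edgeR test with Lrp2 sh1 and 3 were lower with Lrp2 sh2. At an unadjusted p under 0.05 the Lrp2 sh1 count was 2 (Rgmb and Eng), beside 3506 of 17801 genes in either direction.

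Of the 18 antagonists tested, nSREBP2 libraries had 6 lower and 3 higher (all genes 8.47% and 12.6%), the first hairpin (Lrp2 sh1) had 3 lower and 1 higher (2.28% and 3.06%), and the other (Lrp2 sh2) had 7 lower and 2 higher (9.48% and 8.59%). Sostdc1, a secreted BMP and Wnt antagonist, was at 154 CPM with ctrl sh, 57.0 with Lrp2 sh1 (−1.44, SE 0.08, edgeR adjusted P = 6.12e-05) and 41.5 with Lrp2 sh2 (−1.88, edgeR adjusted P = 6.15e-05). This control was itself raised, since Sostdc1 was called higher with ctrl sh than in the uninjected and the GFP libraries. Against uninjected it was called with neither Lrp2 hairpin, though with Lrp2 sh2 it was lower at an unadjusted edgeR p under 0.05. Sost, which encodes sclerostin, was lower in all 3 comparisons but at few counts, with a mean of 3.11 CPM with GFP and 0.21 CPM with nSREBP2. Noggin (Nog) fell with nSREBP2 (6.79 to 2.04 CPM; −1.72, edgeR adjusted P = 0.00209) and with Lrp2 sh2 (−1.35, edgeR adjusted P = 0.0272). Fstl1 rose with nSREBP2 from 1222 to 2019 CPM (+0.73), in libraries whose fibroblast and sclera sums were also higher.

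Among the other ligands of the superfamily, 2 were lower and 4 higher of the 15 tested in nSREBP2 against GFP, 2 lower and 1 higher of 12 for the first hairpin (Lrp2 sh1), and 1 lower and 2 higher of 13 for the other (Lrp2 sh2). Inhba, an activin subunit, rose from 10.02 to 44.4 CPM with nSREBP2 (+2.15, SE 0.11, edgeR adjusted P = 3.23e-06). Gdf15, a stress-induced cytokine, was higher in all 3 comparisons (+1.22, +2.54 and +1.91), and Gdf10 was lower in all 3 (−1.16, −0.70 and −0.78). Of the ligand-processing genes, Furin was lower with Lrp2 sh2 (363 to 230 CPM; −0.65, edgeR adjusted P = 0.000244) and Bmp1, a procollagen and chordin protease, was higher with nSREBP2 (+0.61) and with Lrp2 sh2 (+0.56). Over these 7 lists of pathway genes together, 21 genes were lower and 16 higher of the 67 tested in nSREBP2 against GFP (all genes 8.47% and 12.6%), 8 lower and 3 higher of 63 in Lrp2 sh1 against ctrl sh (2.28% and 3.06%), and 19 lower and 8 higher of 64 in Lrp2 sh2 against ctrl sh (9.48% and 8.59%).

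**Figure D4:**
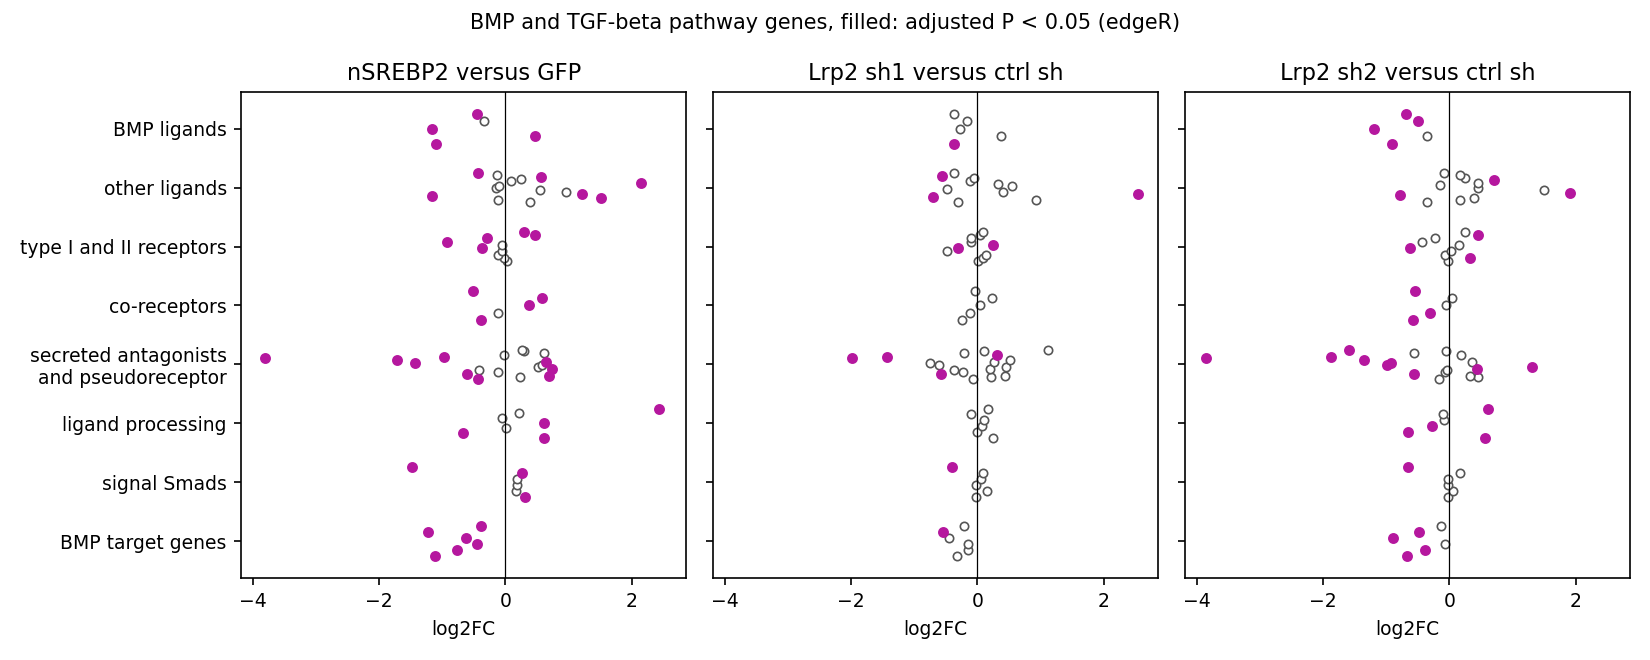
log2 fold changes of the tested genes of the 8 pathway lists (points, grouped by role) in the 3 comparisons of the study. The 6 BMP target genes were below 0 in each comparison, while antagonists and other ligands lay on both sides.

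The relation of each ligand to Lrp2 was taken separately over the 9 libraries with unmanipulated Lrp2 (uninjected, GFP and ctrl sh) and the 9 with lowered Lrp2 (nSREBP2 and both hairpins), because Lrp2 falls into separate clusters and a pooled coefficient would restate the design. Pearson's r of log2 CPM was highest for Bmp2 in the unmanipulated libraries, at 0.687 (exact permutation p = 0.0402, adjusted over 10 relations 0.2535, Spearman's rho 0.55 with exact p = 0.133 and adjusted 0.444). It was 0.606 without the 2 libraries farthest from the median of Lrp2. Bmp7 was at 0.666 in the same libraries (rho 0.28, exact p = 0.0527, adjusted 0.2535). In the lowered libraries Gdf11 was highest at 0.618 (rho 0.53, exact p = 0.0760, adjusted 0.2535) and 0.759 without the 2 farthest. None of the 10 relations passed the adjusted threshold by r or by rho, and 1, that of Bmp2, had an unadjusted exact p under 0.05.

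A closer look came from deviations of each library from its own group mean, which the design does not set. Within groups Bmp4 (r = 0.878), Bmp7 (0.868), Bmp2 (0.842) and Gdf11 (0.825) moved with Lrp2, each past the threshold (exact permutation within groups, adjusted p of 0.00804, 0.0112, 0.0148 and 0.0103), and Bmp6 did not (0.293, exact adjusted p = 0.367). Across 10263 genes at 10 CPM or more, the median within-group r with Lrp2 was 0.0366, and 2.74% of genes were at or above Bmp2, 1.66% above Bmp4, 1.89% above Bmp7, 3.22% above Gdf11 and 31.8% above Bmp6. The same libraries were also high or low for RPE markers. Within groups Lrp2 followed the 12-marker sum with r = 0.94, and with that sum held fixed 0 of the 5 relations passed the threshold (Bmp2 0.585, exact adjusted p = 0.211; Bmp7 0.617, exact adjusted p = 0.113; Bmp4 0.206 and Gdf11 −0.196). With the 16-marker sum held fixed, Bmp4 (0.624), Bmp7 (0.794) and Gdf11 (0.662) passed and Bmp2 did not (0.710, exact adjusted p = 0.181).

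**Figure D5:**
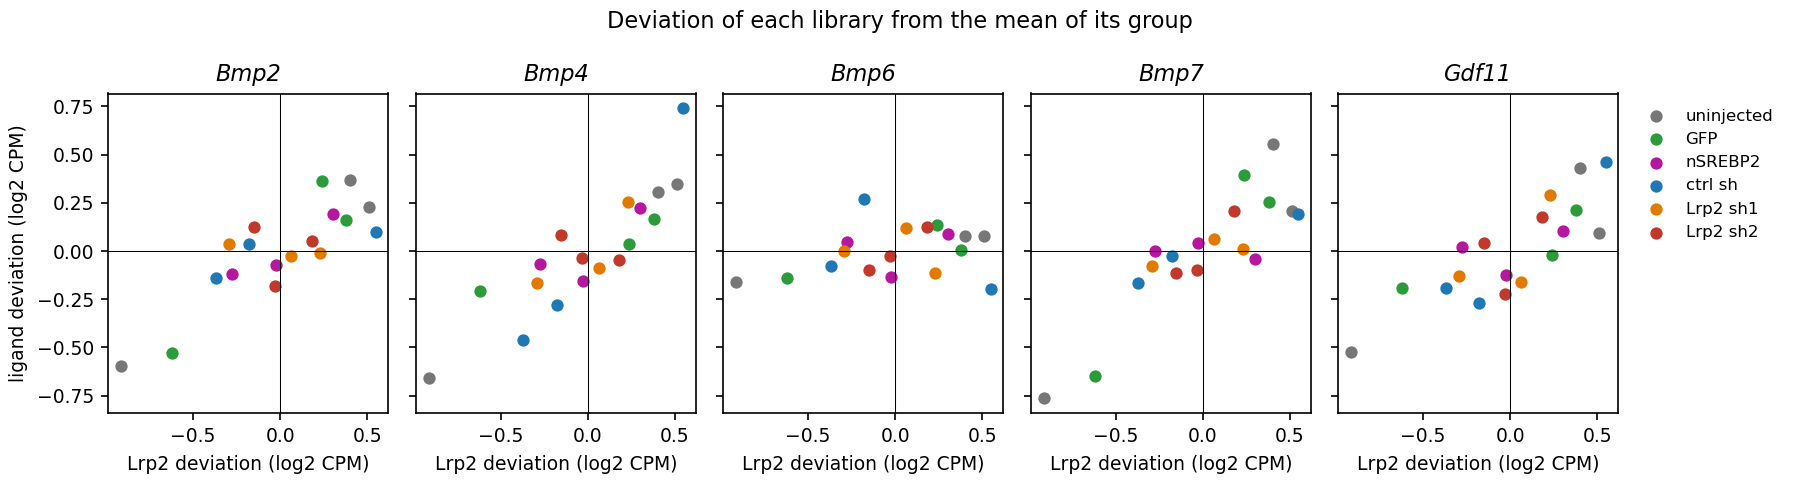
Deviation of each ligand from its group mean (vertical, log2 CPM) against the deviation of Lrp2 (horizontal, log2 CPM), 18 points per ligand coloured by group. Bmp2, Bmp4, Bmp7 and Gdf11 rose with Lrp2 (r of 0.825 to 0.878), and Bmp6 scattered (0.293).

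The genes most like each ligand were named by Pearson's r of log2 CPM over the 18 libraries, among 10266 genes at 10 CPM or more. These points share libraries and groups, and no test was made. Bmp2 was most like Pla2g5 (0.960), Cldn1 (0.955) and Paqr9 (0.951), Bmp4 like Cdr2 (0.925) and Mpv17l (0.918), and Bmp6 like Ptgs1 (0.945), Pdhx (0.940) and Palmd (0.932). Bmp7 was most like Pard6b (0.937), Stxbp2 (0.907) and Klc4 (0.906), and Gdf11 like Gabrb1 (0.960), Plce1 (0.955) and Slc4a2 (0.947).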

How the data were processed

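RNA-seq was made from the RPE of 18 mice, 3 per group. Raw read counts per gene were deposited by the authors in 1 table. Per the study's methods, libraries were rRNA-depleted and directional and reads were aligned with STAR to GRCm38. The annotation used for counting is not given in the sources used here. Replicates were not pooled. Groups came from the sample labels. Each of the 10 pairwise comparisons was fitted on its 6 libraries by the quasi-likelihood test of edgeR (version 4.0.16, R 4.3.3). This followed TMM scaling and the filterByExpr filter, with Benjamini-Hochberg adjustment over all genes tested. The differences between the effect of nSREBP2 and that of each Lrp2 hairpin were fitted in the same way on all 18. A gene is called lower or higher at an adjusted P under 0.05. CPM values are TMM-scaled. Correlations used log2 CPM with a prior count of 2, with exact permutation tests (scipy 1.17.1). Only the pairwise edgeR test was tried on simulated counts with known fold changes, and the other steps were not. Depth was 8921885 to 13696934 counts. SDs are over the 3 libraries of a group and SEs come from the edgeR test, so both include variation between mice. Each library came from 1 mouse.

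The ligands and gene lists were chosen with earlier results of these data known, the ligands are those the study followed up, and the BMP targets are 6 of the 7 genes it examined in these libraries (Smad9 is in another list here). Of the pathway lists, up to 6 called genes with the lowest adjusted P in each comparison of the study, and called genes with an absolute log2 fold change over 1, were to be named. Other list members (such as the receptors) were named after their values were seen, to say what a count held. Alternatives were DESeq2 1.42.0, other size factors, other filters, a replicate block, leaving out each library, 1 fit of all libraries, sex as a term and, added after the data were seen, the sum of 12 RPE markers as a term in the fit of all libraries. The replicate numbers did not pair the samples, since in no comparison did all 3 same-numbered pairs correlate above 0.1. For each ligand the 3 genes most like it were to be named, and 1 of those for Bmp4 is not reported here.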

Additional observations from a re-analysis of the deposited data

Results flagged for a closer look

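The difference between effects was past the threshold in 7 cases. That between nSREBP2 and Lrp2 sh1 came from the fit of all 18 libraries, and the others came from pairwise fits. Bmp6 fell further with nSREBP2 than with Lrp2 sh1 (difference −0.91 on the log2 scale). Between the 2 hairpins, which shared the ctrl sh control, Bmp2 (−0.54), Bmp4 (−0.73), Bmp6 (−0.92) and Bmp7 (−0.34) were lower with Lrp2 sh2. In the fit of all 18 libraries Bmp2 (edgeR adjusted P = 0.0803), Bmp4 (0.0631) and Bmp7 (0.369) did not pass. Between the control vectors, set against the same uninjected libraries, Bmp6 (0.65) and Gdf11 (1.05) were higher with ctrl sh than with GFP. With 3 libraries per group, no single library was examined as an outlier. With the 12-marker sum as a term, the differences of Bmp6 between nSREBP2 and Lrp2 sh1 and between the hairpins kept their calls, and the other 5 did not.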

How the results depend on the processing

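Of 1501 values under alternatives, 1282 were classed as the same, 113 as weaker, 35 as stronger, 65 as reversed and 6 as moved. A fold change or correlation was the same when it kept its direction and its side of the threshold. A count of ligands called was the same also after a small shift, so it can hide a lost call. A ligand level was the same within its SD. Of 920 fold changes and differences of effects of single ligands, 151 changed class. The cause was not tested for any. Genes past the size rule, lower and higher, were 212 and 39 of 17837 (GFP against uninjected) and 788 and 678 of 18223 (Lrp2 sh2 against uninjected). They were 21 and 141 of 18018 (ctrl sh against GFP) and 325 and 597 of 17975 (Lrp2 sh2 against Lrp2 sh1). With the size rule the ligands called were 2 (nSREBP2 against GFP), 0 (Lrp2 sh1 against ctrl sh), 1 (Lrp2 sh2 against ctrl sh), 1 (GFP against uninjected), 1 (Lrp2 sh2 against uninjected), 1 (ctrl sh against GFP) and 0 (Lrp2 sh2 against Lrp2 sh1). In 1 fit of all 18 libraries they were 2 with nSREBP2, 0 with Lrp2 sh1 (Bmp2 at −0.36) and 1 between the hairpins, and with sex as a term also 2, 0 (Bmp2 at −0.36) and 1, with 2 for Lrp2 sh2; there the difference of effects for Bmp4 (nSREBP2 minus Lrp2 sh1) was −0.17 and for Bmp6 (nSREBP2 minus Lrp2 sh2) −0.0058. The replicate block, which the data did not support as a pairing, called 0 ligands with Lrp2 sh1 (Bmp2 at −0.36) and 1 with GFP against uninjected, lost the calls of Gdf11 with Lrp2 sh2 and Bmp4 with GFP, gained Gdf11 with Lrp2 sh2 against uninjected, changed no other ligand's call, and moved the genes called from 949 to 492 (Lrp2 sh1 against ctrl sh) and from 1157 to 244 (ctrl sh against uninjected).

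With the 12-marker term, chosen after seeing the data, Bmp2 was at −0.16 with Lrp2 sh1 and −0.19 with Lrp2 sh2, 2 ligands were called with Lrp2 sh2, Bmp7 turned to 0.10 with Lrp2 sh1, and with Lrp2 sh2 Bmp4 turned to 0.85, Bmp7 to 0.40 and Gdf11 to 0.23. Ligands called against uninjected were 0 (GFP), 1 (nSREBP2), 3 (ctrl sh) and 4 (Lrp2 sh1), between the control vectors 1, between the hairpins 1, and 2 for the differences between effects. Directions turned against uninjected with GFP (Bmp2 1.16, Bmp4 1.18, Bmp7 1.64, Gdf11 0.95), nSREBP2 (Bmp2 0.27, Bmp4 1.95, Bmp7 1.57, Gdf11 0.75), ctrl sh (Bmp2 0.47, Bmp4 0.15), Lrp2 sh1 (Bmp2 0.31, Bmp4 0.91, Gdf11 0.68) and Lrp2 sh2 (Bmp2 0.27, Bmp4 0.998, Bmp7 1.43, Gdf11 1.006), for ctrl sh against GFP (Bmp2 −0.69, Bmp4 −1.03, Bmp7 −0.61, Gdf11 −0.17), for Lrp2 sh2 against Lrp2 sh1 (Bmp4 0.085, Bmp7 0.30, Gdf11 0.33) and for nSREBP2 minus Lrp2 sh2 (Bmp4 −0.078, Bmp6 −0.029, Bmp7 −0.47, Gdf11 −0.43). With the 12-marker sum held fixed, 0 within-group relations to Lrp2 passed and Gdf11 was at −0.196. In CPM the Bmp6 relation to Lrp2 was −0.0013 in the unmanipulated libraries and −0.00088 within groups. In log2 CPM it was −0.21 in the unmanipulated libraries without the 2 farthest. Bmp4 by rho was −0.05 in the lowered libraries. By coding length, 1 of the 5 ligands kept its place in the order of levels.

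Leaving out 1 library gave 2 to 4 ligands called with nSREBP2, 0 to 1 with Lrp2 sh1 (Bmp2 −0.43 to −0.31), 2 to 4 with Lrp2 sh2 (Bmp4 −0.57 to 0.12) and 0 to 2 between the control vectors. Against uninjected it gave 0 to 3 with GFP (Bmp7 −0.58 to 0.025), 2 to 5 with nSREBP2, 1 to 3 with Lrp2 sh1 (Bmp7 −0.14 to 0.46, Gdf11 −0.45 to 0.0047) and 0 to 4 with Lrp2 sh2 (Bmp7 −0.49 to 0.11); with ctrl sh, Bmp2 ran from −0.34 to 0.089 and Gdf11 from −0.14 to 0.37. Differences between effects gave 1 to 2 called; for nSREBP2 minus Lrp2 sh1 the ranges were −0.39 to 0.31 (Bmp4), −0.46 to 0.0080 (Bmp7) and −0.35 to 0.081 (Gdf11), and for nSREBP2 minus Lrp2 sh2 −0.42 to 0.010 (Bmp2), −0.12 to 0.13 (Bmp6), −0.11 to 0.37 (Bmp7) and −0.020 to 0.38 (Gdf11). The relation to Lrp2 ran from −0.35 to 0.31 for Bmp6 in the unmanipulated libraries and from −0.15 to 0.45 for Bmp4 in the lowered ones.

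Genes called with GFP against uninjected were 442, but 1093 with no filter, 835 by DESeq2 and 1722 in the fit of all libraries, and 66 to 740 without 1 library. With ctrl sh against GFP they were 483, but 939 with no filter and 217 to 430 without 1 library. Without 1 library they were 364 to 1298 in place of 949 with Lrp2 sh1 against ctrl sh, and 140 to 998 in place of 1157 with ctrl sh against uninjected, which was 2870 in the fit of all libraries. With no filter those were 1441 and 1736. With the sex term genes called were 2178 in place of 3770 (nSREBP2 against GFP), 1225 with GFP and 2456 with ctrl sh against uninjected. With the 12-marker term they were 1462 in place of 3268 (Lrp2 sh2 against ctrl sh), 204 (ctrl sh against GFP), 2002 in place of 4029 (between the hairpins) and, against uninjected, 787 in place of 4704 (nSREBP2), 3065 (ctrl sh) and 2000 in place of 4138 (Lrp2 sh2). Without 1 library the lowest counts were 2481 (nSREBP2 against GFP), 2019 (Lrp2 sh2 against ctrl sh), 2626 (between the hairpins), and 2266 in place of 4354 (Lrp2 sh1) and 2656 (Lrp2 sh2) against uninjected. The smallest difference that 3 mice per group and this depth could show was not measured.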
